A study of Mus musculus with 12 samples.

Results

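The interleukin-1 (IL-1) system and the inflammasome that feeds it were described in mouse microglia through 9 genes, taken by symbol, all of them among the 770 genes of the deposited table. The genes fall into 3 roles, namely the ligands Il1a and Il1b with the antagonist Il1rn, the receptor chains Il1r1, Il1r2, Il1rap and Il1rl2, and the inflammasome genes Nlrp3 and Casp1. The study asked how aged microglia with much or little phosphorylated ERK1/2, a kinase of the MAP kinase pathway, differ from each other and from adult microglia. RNA of the sorted cells was measured with a NanoString panel, in which each target molecule is captured by a barcoded probe and counted by imaging, with no amplification step. Aged P-ERK1/2 High microglia (samples 2, 5, 7 and 8) and aged P-ERK1/2 Low microglia (samples 3, 6, 9 and 12) gave 4 samples each. Adult microglia, which were not separated by ERK1/2 phosphorylation, gave samples 1, 4 and 10, while a further adult sample, 11, is marked as excluded for poor quality in its title and was kept apart.

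Aged means over 80 weeks of age and adult 12 to 20 weeks, according to the labels, which name the strain as C57B6. Each sample pooled the CNS of a male and a female. All animals carried an eYFP reporter and CreERT2 under the Cx3cr1 promoter, so a cell enters the gate only where this promoter is or has been active. The gate took eYFP+ cells of intermediate CD45 that lacked Ly6G, after CD11b bead enrichment, fixation and permeabilization. The labels call the mice untreated, whereas the study's legends mention Tamoxifen, given shortly before collection in adult and long before in aged mice, so that this interval cannot be told apart from age. Whether High and Low samples came from the same animals is not stated, and the p-values below measure only the spread between these samples.

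IL-1 alpha and IL-1 beta both signal through the receptor formed by IL1R1 and its accessory chain IL1RAP, which recruits MYD88 and IRAK kinases and activates NF-kB and MAP kinases. IL1RN occupies the receptor without signaling, and IL1R2 is a decoy that binds ligand without signaling. The precursor of IL-1 beta is cleaved by caspase-1, which is itself activated in inflammasomes such as the one built on NLRP3, and in the CNS microglia are known as a main source of IL-1.

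Depth differed between the groups, with total counts of 650965 to 1539936 in High, 123798 to 157209 in Low and 137980 to 326575 in kept adult samples. A gene was taken as above background where its count exceeded the mean plus 2 SD of the 8 negative control probes of that sample, which held for 589 to 673 genes in High, 410 to 484 in Low and 417 to 560 in adult samples. On the normalized scale the background therefore lay at 69.2 to 117 in Low and at 26.1 to 39.5 in High samples. Csf1r, the receptor that microglia need for survival, was above background in all kept samples. P2ry12, a marker of homeostatic microglia, was above background in 4 of 4 High, 0 of 4 Low and 2 of 3 adult samples, and Ly6g in no kept sample. High sample 7 stood apart. Over the 80 genes other than these 9 that changed between adult (set to 0) and Low (set to 1), its median position was 0.0040, against 0.92 to 1.03 in the other High samples. In depth (650965 counts) and in its Nlrp3 and Casp1 values, sample 7 was the lowest of the High samples but lay above every Low and every kept adult sample, for Casp1 only just (244, against 235 in Low sample 6). Adult sample 11 lay at 1.04, and its positive control probes summed to 8633 counts, against 33391 to 54417 in the other samples. Results that rest on sample 7 are given with and without it.

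Promoters are shown for the ligands, the antagonist and the inflammasome genes, the members on which the results turn, in mouse build GRCm38.p6 from RefSeq. Each window of 300 bases starts 250 bases before the annotated start of transcription and is written 5′ to 3′ on the strand of the gene. Capitals mark matches on either strand to the AP-1 motif TGANTCA, the TATA motif TATAAA or the NF-kB motif. The Il1rn and Nlrp3 windows are the first of 3 and of 2 annotated.
Il1a, chr2:129309923-129310222, minus strand: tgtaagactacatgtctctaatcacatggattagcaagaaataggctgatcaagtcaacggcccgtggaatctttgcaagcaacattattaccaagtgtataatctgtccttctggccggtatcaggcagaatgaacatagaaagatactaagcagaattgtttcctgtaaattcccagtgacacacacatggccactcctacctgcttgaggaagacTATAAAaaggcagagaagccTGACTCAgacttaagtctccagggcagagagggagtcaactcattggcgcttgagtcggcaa
Il1b, chr2:129371090-129371389, minus strand: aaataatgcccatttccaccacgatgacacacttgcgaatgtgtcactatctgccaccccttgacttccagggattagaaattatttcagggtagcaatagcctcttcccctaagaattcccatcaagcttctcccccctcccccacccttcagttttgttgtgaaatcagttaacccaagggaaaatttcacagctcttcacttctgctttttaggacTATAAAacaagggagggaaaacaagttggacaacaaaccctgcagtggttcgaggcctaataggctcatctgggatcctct
Il1rn, chr2:24336610-24336909, plus strand: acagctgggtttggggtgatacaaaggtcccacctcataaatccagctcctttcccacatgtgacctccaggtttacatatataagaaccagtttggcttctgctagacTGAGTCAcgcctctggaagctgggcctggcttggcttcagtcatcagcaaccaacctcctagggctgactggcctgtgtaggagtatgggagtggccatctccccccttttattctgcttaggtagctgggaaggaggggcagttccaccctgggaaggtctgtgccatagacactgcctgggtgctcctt
Nlrp3, chr11:59541319-59541618, plus strand: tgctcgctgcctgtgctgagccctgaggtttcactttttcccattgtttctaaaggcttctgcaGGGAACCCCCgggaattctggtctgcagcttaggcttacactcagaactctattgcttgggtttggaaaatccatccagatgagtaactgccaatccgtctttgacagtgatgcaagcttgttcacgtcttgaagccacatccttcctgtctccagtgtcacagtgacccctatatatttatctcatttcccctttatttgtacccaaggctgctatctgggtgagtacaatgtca
Casp1, chr9:5298267-5298566, plus strand: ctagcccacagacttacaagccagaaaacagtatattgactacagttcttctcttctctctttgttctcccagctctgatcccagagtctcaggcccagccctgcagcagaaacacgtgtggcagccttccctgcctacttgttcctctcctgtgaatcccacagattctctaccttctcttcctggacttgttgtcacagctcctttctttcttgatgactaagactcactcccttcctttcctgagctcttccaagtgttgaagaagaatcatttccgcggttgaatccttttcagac

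AP-1, the factor formed by FOS and JUN proteins that act downstream of ERK, had a match at bases -12 to -6 of Il1a and at -141 to -135 of this Il1rn window. Such a match is held by 7.81% of the 32851 windows of the same length. TATAAA lay at -32 to -27 in Il1a and at -31 to -26 in Il1b, and 13.6% of all windows hold it. The NF-kB motif lay at -186 to -177 in Nlrp3 (8.46% of all windows). The Casp1 window held none of these motifs. The CRE motif TGACGTCA and the CArG motif, to which CREB and SRF bind, and the PU.1 motif GAGGAAGT were also searched and had 0 matches in the 13 windows of the 9 members, where 1.79%, 1.63% and 3.2% of all windows hold one. Il1a and Il1b are direct neighbours on chromosome 2, and Il1r2, Il1r1 and Il1rl2 follow each other on chromosome 1. These matches describe letters in a window and were not tested as binding sites.

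Il1a, Nlrp3 and Casp1 were higher in aged P-ERK1/2 High than in aged P-ERK1/2 Low microglia, and no member was called lower. A call required p under 0.01 together with a log2 fold change of more than 1 in size, from limma on log2(normalized value + 1), and adjusted p-values are those of Benjamini and Hochberg across all genes. On this scale the fold of genes with low values is understated. In this comparison 3 of 9 members were called, all of them higher, where 37.8% of all 770 genes were called, 28.2% higher and 9.61% lower. No member was lower at an unadjusted p under 0.05 either, but after scaling to total count 4 members were called lower and 0 higher. The values of 4 of 9 members (Il1a, Il1b, Nlrp3 and Casp1) did not overlap between the groups, against 49.4% of all genes. The median log2 fold change was 0.34 over the members and 0.26 over all genes, so the share of members that changed was near that of the panel.

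Between aged P-ERK1/2 Low and adult microglia, Il1rn and Nlrp3 were called higher and Il1a lower in Low. These are 3 of 9 members, where 10.8% of all genes were called, 8.05% higher and 2.73% lower. Groups did not overlap for 4 of 9 members (Il1a, Il1rn, Nlrp3 and Casp1), against 36.5% of all genes. The median log2 fold change was 0.31 over the members and 0.10 over all genes. Between P-ERK1/2 High and adult microglia, Nlrp3, Casp1 and Il1rap were called higher, 3 of 9 members where 36.9% of all genes were called, 29.2% higher and 7.66% lower. The same 3 members did not overlap, against 50.3% of all genes, and the medians were 1.07 and 0.35. The High and adult samples each enter more than a single comparison, so these are not independent. The plot of log2 fold changes gives all members side by side.

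**Figure D1:**
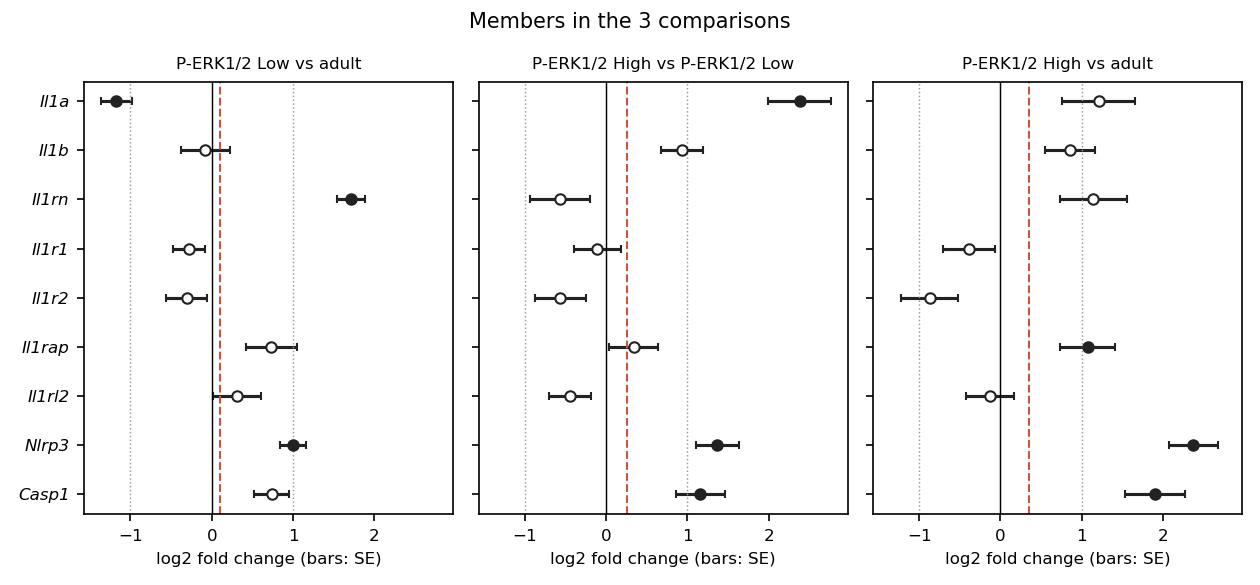
Log2 fold change of each member in the 3 comparisons, with bars for the standard error. Filled points were called, dotted lines mark -1 and 1, and the dashed line is the median of all 770 genes (0.10, 0.26 and 0.35 from left to right). Il1a lies at -1.17 in Low against adult and at 2.38 in High against Low.

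Il1a, which encodes a cytokine that is active without cleavage by caspase-1 and acts as an alarm signal of damaged cells, was lowest in Low samples. Its normalized value was 154, 155 and 239.7 in adult samples 1, 4 and 10, and 74.5, 87.6, 80.3 and 73.8 in Low samples 3, 6, 9 and 12. In High samples 2, 5, 7 and 8 it was 229, 325, 1027 and 388. Every Low sample lay below every adult and every High sample, whereas High and adult samples overlapped through adult sample 10. Group means were 183 ± 49.1 (SD, n = 3) in adult, 79.1 ± 6.40 (n = 4) in Low and 492 ± 363 (n = 4) in High.

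Only 1 of 4 Low samples was above background for Il1a, with counts of 18 to 30 in the group, so that its level there is close to a limit of detection. Il1a rose by 2.38 (SE 0.38) on the log2 scale in High against Low (limma, adjusted p = 0.00038), rank 36 among all 770 genes ordered by increase. Without High sample 7, which had the highest value, the log2 fold change was 1.95 (adjusted p = 6.6e-05). The call was lost with total count scaling (1.36) and with a plain test of unequal variances. Against adult, Il1a fell by 1.17 (SE 0.19) in Low (adjusted p = 0.0041), and without adult sample 10 the value was -0.96, inside the fold limit. That call was also lost with a spread shared by all 3 groups and with the plain test. With each Low sample set to the higher of its value and its background, a limit computed after the values were seen, the log2 difference from Low was 2.03 for High and 0.82 for adult. The fall in Low against adult is therefore not secured beyond the fold limit. The log2 fold change of Il1a in High against adult was 1.21 (SE 0.45, adjusted p = 0.046), which missed the threshold of p, and it was 0.77 without sample 7.

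Il1b, the ligand that needs cleavage by caspase-1, was above background in the 4 High samples and in no Low or kept adult sample. It was 72.6, 33.8 and 59.3 in adult samples 1, 4 and 10, and 67.8, 49.1, 34.8 and 53.3 in Low samples 3, 6, 9 and 12. High samples 2, 5, 7 and 8 gave 98.6, 112, 109 and 70.9. All High samples lay above all Low samples, with the lowest High value of 70.9 beside the highest Low value of 67.8, and adult sample 1 overlapped with High. The log2 fold change of 0.93 (SE 0.26, adjusted p = 0.0092) in High against Low passed the limit on p in limma but not that on fold. The Low values rested on 13 to 20 counts.

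Because no Low and no adult sample was above background for Il1b, those groups give only an upper limit. Against the adult background, and on means of log2 values, High was at least 1.55-fold higher, while against that of the Low samples no fold above 1 could be given. The fitted log2 fold change was 0.86 (SE 0.31, adjusted p = 0.042) in High against adult, and in Low against adult it was -0.08 (SE 0.31, adjusted p = 0.87). Neither was called.

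Il1rn, the receptor antagonist, was low in adult and high in most aged samples. Adult samples 1, 4 and 10 gave 88.5, 89.7 and 93.9. Low samples 3, 6, 9 and 12 gave 332, 344, 230.1 and 304, and High samples 2, 5, 7 and 8 gave 253, 274, 82.0 and 286. All Low samples lay above all adult samples, and so did 3 of 4 High samples, while sample 7 lay below every adult value. Il1rn rose by 1.71 (SE 0.17) in Low against adult (limma, adjusted p = 0.00060), rank 15 by increase among all genes.

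Il1rn had a log2 fold change of 1.14 (SE 0.41, adjusted p = 0.041) in High against adult and was not called, and without sample 7 it was called at 1.57 (adjusted p = 0.00027). High and Low did not differ beyond their spread, with a log2 fold change of -0.57 (SE 0.37, adjusted p = 0.21) and of -0.14 without sample 7. On the scale from adult (0) to Low (1), the Il1rn position of sample 7 was -0.08 and those of the other High samples were 0.86 to 0.96, close to the medians of the 80 other genes given above.

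**Figure D2:**
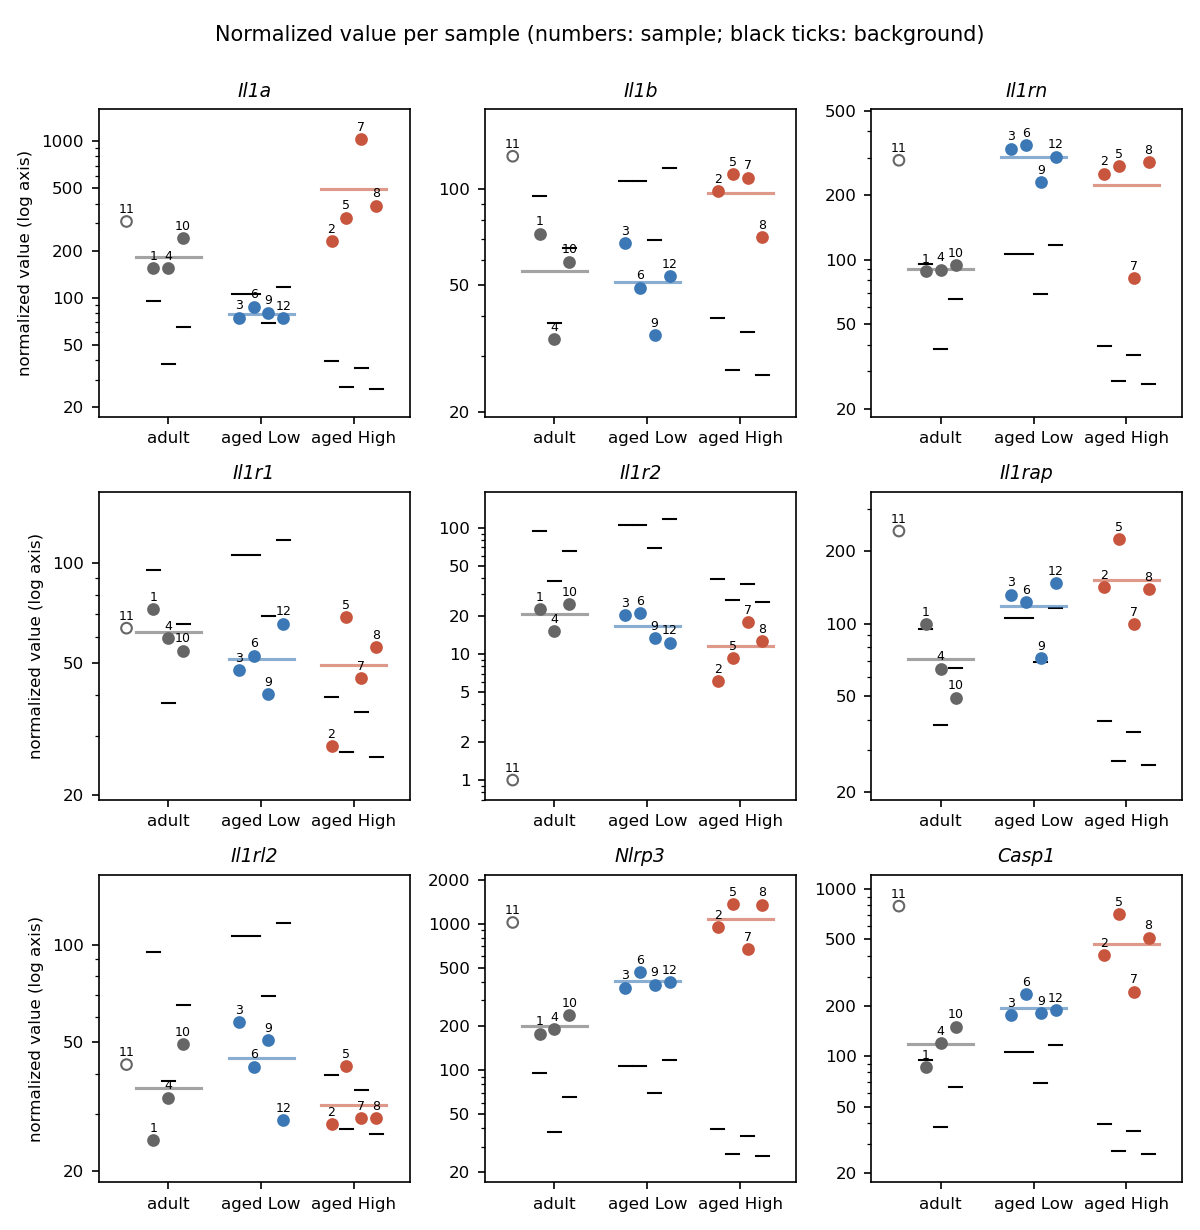
Normalized value of each member per sample on a log axis, with the sample number at each point, a coloured line at the group mean and a short black tick at the background of that sample. Adult sample 11, left out of the tests, is the open circle. Nlrp3 runs from 177 to 237 in kept adult, 366 to 466 in Low and 668 to 1362 in High samples, with no overlap between these groups.

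Among the receptor chains, only Il1rap, the accessory chain that IL1R1 and several related receptors need to signal, was called in any comparison of the values as deposited. It was 99.8, 65.2 and 49.4 in adult samples 1, 4 and 10, and 132, 123, 72.2 and 148 in Low samples 3, 6, 9 and 12. High samples 2, 5, 7 and 8 gave 142, 225, 99.9 and 139. The lowest High value, in sample 7, lay just above the highest adult value, and Low overlapped with both groups. Il1rap rose by 1.07 (SE 0.34) in High against adult (limma, adjusted p = 0.022). The call was lost when any of High samples 2, 5 or 8 or adult samples 4 or 10 was left out, with log2 fold changes between 0.84 and 1.09. It was also lost with median-of-ratios scaling (0.71, where Il1r2 was called at -1.21 instead), quantile normalization (0.70), total count (-0.33), a pseudocount of 20 (0.90), the plain test and sample 11 added (0.62). The value was 0.73 (SE 0.31, adjusted p = 0.12) in Low against adult and in High against Low 0.34 (SE 0.30, adjusted p = 0.35).

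Il1r1, the signaling receptor for both ligands, ranged from 54.4 to 72.6 in adult, 40.1 to 65.6 in Low and 28.0 to 68.6 in High samples. Il1r2, the decoy receptor, ranged from 15.1 to 24.7, 12.3 to 21.0 and 6.09 to 18.0, and was above background in none of the 11 samples. Il1rl2, the receptor for IL-36 cytokines, ranged from 25.0 to 49.4, 28.7 to 57.6 and 28.0 to 42.2. All ranges overlapped between the groups. In Low samples the 3 genes rested on 14 to 16, 3 to 6 and 7 to 19 counts. Il1r2 rested on 5 to 16 counts in High and 10 to 13 in adult samples. Above background, Il1r1 was found in 3 of 4 High, 0 of 4 Low and 1 of 3 adult samples, and Il1rl2 in 2 of 4 High samples alone. Their log2 fold changes ran from -0.87 (Il1r2, High against adult, adjusted p = 0.061) to 0.31 (Il1rl2, Low against adult, adjusted p = 0.47). None was called as deposited, but this depended on the scaling. Total count scaling called all 3 lower in High against adult, at -1.77 for Il1r1, -2.17 for Il1r2 and -1.50 for Il1rl2, and in High against Low as given below with the other scalings. Without sample 7, Il1r2 passed the threshold in High against adult at -1.10, from values below background.

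Nlrp3, the sensor of the inflammasome, rose from adult to Low and from Low to High. Adult samples 1, 4 and 10 gave 177, 189.8 and 237. Low samples 3, 6, 9 and 12 gave 366, 466, 383 and 398, and High samples 2, 5, 7 and 8 gave 946, 1362, 668 and 1346. No kept sample of any group lay within the range of another group, and all 11 kept samples were above background. Adult sample 11, kept apart, gave 1018, within the range of the High samples. The means were 201 ± 31.7 (SD, n = 3), 403 ± 44.0 (n = 4) and 1080.5 ± 336 (n = 4).

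Nlrp3 rose by 2.37 (SE 0.30) in High against adult (limma, adjusted p = 0.00014), by 1.37 (SE 0.26) in High against Low (adjusted p = 0.0012) and by 1.00 (SE 0.16) in Low against adult (adjusted p = 0.0040). The last value lies at the fold limit. It came to 0.92 to 0.97 when Low sample 6 or adult samples 1 or 4 were left out, and the call was then lost. It was also lost under the 5 other scalings tried, with a pseudocount of 20 and with adult sample 11 added. The rise in High against Low was kept without each of the 8 samples in turn, from 1.24 to 1.58, but its call was lost after quantile normalization (0.73) and with total count (0.34). In High against adult the call was lost with total count (0.96) and with adult sample 11 added.

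Casp1, the protease that matures IL-1 beta and IL-18, followed the same order. It was 86.2, 119.9 and 151 in adult samples 1, 4 and 10, and 176, 235, 182 and 189 in Low samples 3, 6, 9 and 12. High samples 2, 5, 7 and 8 gave 403, 711, 244 and 513. The 3 groups of kept samples did not overlap, though Low sample 6 and High sample 7 lay close to each other. Casp1 rose by 1.90 (SE 0.37) in High against adult (limma, adjusted p = 0.0019) and by 1.16 (SE 0.31) in High against Low (adjusted p = 0.0073). Without High sample 5 the latter was 0.92 and no longer called, and without sample 7 it was 1.44. The call was kept in 9 of 13 alternatives and lost with median-of-ratios scaling (0.91), quantile normalization (0.68), total count (0.14) and the plain test. Low against adult gave 0.74 (SE 0.21, adjusted p = 0.039), below the fold limit.

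The ratio of antagonist to ligand within a sample hardly depends on the scaling of that sample, which enters only through the pseudocount of 1 added to each value. The log2 ratio of Il1rn over Il1a was -0.80, -0.78 and -1.34 in adult samples 1, 4 and 10, and 2.14, 1.96, 1.51 and 2.02 in Low samples 3, 6, 9 and 12. In High samples 2, 5, 7 and 8 it was 0.15, -0.24, -3.63 and -0.44. Every Low sample lay above every adult and every High sample, and High sample 7 lay far below the other samples. High was lower than Low by 2.95 log2 units on average (a difference of -2.95, and of -2.09 without sample 7), and Low higher than adult by 2.88, with no overlap in either case. Only 1 of 4 Low samples was above background for Il1a. High and adult differed by -0.07 on average, and by 0.79 without sample 7.

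The log2 ratio of Il1rn over Il1b was 0.77 ± 0.56 (SD, n = 3) in adult, 2.56 ± 0.23 (n = 4) in Low and 1.06 ± 1.03 (n = 4) in High. Low lay above both other groups in every sample, on Il1b counts that were below background in Low and adult. High and Low differed by -1.50, and by -1.01 without sample 7. With no Low sample above background for Il1b, this difference is not a measured one. The ratio of Il1a over Il1b was higher in High than in Low by 1.45, without overlap, and by 1.07 without sample 7. In Low, however, Il1b was above background in 0 of 4 samples and Il1a in 1 of 4, so that this ratio is mostly one of background values there and its difference is not a measured one. Nlrp3 over Casp1 had means of 0.78 in adult, 1.04 in Low and 1.25 in High, and the groups overlapped. In exact two-sided permutation tests, the 3 ratios that did not overlap between High and Low had p = 0.029, the smallest that 4 against 4 samples allow, each with a ligand mostly below background in Low. With 4 against 3 samples p cannot go below 0.057, which both ratios of Il1rn reached in Low against adult. After Benjamini-Hochberg adjustment over the 12 tests none passed, the smallest adjusted p being 0.11.

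**Figure D3:**
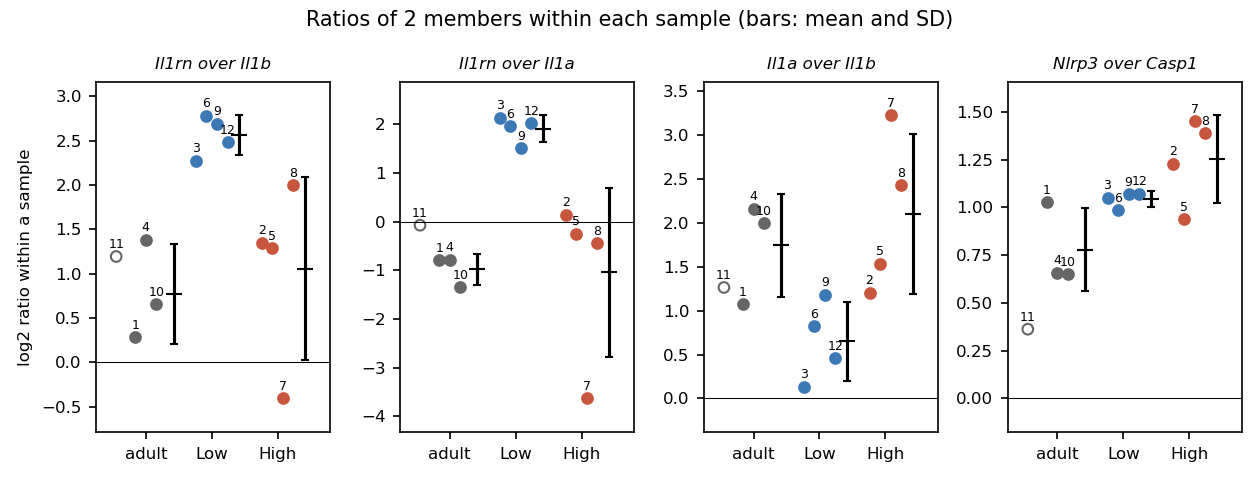
Log2 ratio of 2 members within each sample, with the sample number at each point and the mean and SD of each group as a black bar. Adult sample 11 is the open circle. Il1rn over Il1a is 1.51 to 2.14 in Low samples and -3.63 to 0.15 in High samples, with sample 7 far below the rest.

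The scaling sets the level of every fold change. In High against Low, the median over all 770 genes was a log2 fold change of 0.26 as deposited, 0.01 with median-of-ratios scaling, -0.10 after quantile normalization, 1.02 with the 6 most stable housekeeping genes, -0.76 with total count and 1.86 without scaling. Among the called genes, the share called higher moved with it, from 217 of 291 as deposited to 178 of 298 with median-of-ratios scaling, 146 of 288 after quantile normalization, 361 of 365 with the 6 genes and 59 of 370 with total count. Of the 83 genes called in Low against adult, 62 were called higher as deposited, against 24 of 83 with total count. The corresponding numbers for High against adult were 225 of 284 and 40 of 402.

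All of these scalings except quantile normalization multiply a sample by 1 factor and so move all genes of it nearly alike. Values relative to the median of all genes therefore stay nearly the same by construction, and are given to place the members within the panel. Under these 6 scalings Il1a lay 2.06 to 2.16 above the panel median in High against Low, Nlrp3 0.83 to 1.18, Casp1 0.79 to 0.96 and Il1b 0.66 to 0.69 above it. Il1rn lay 0.76 to 0.86 below the median, in log2 units, and Il1rap 0.08 to 0.15 above it. Without this subtraction, the direction of Il1rn, Il1r1, Il1r2 and Il1rl2 turned positive with the 6 housekeeping genes and without scaling. That of Il1b and Il1rap turned negative with total count. Il1a, Nlrp3 and Casp1 stayed positive throughout, but with total count they were 1.36, 0.34 and 0.14 and none of them was called. That scaling instead called Il1rn (-1.59), Il1r1 (-1.11), Il1r2 (-1.48) and Il1rl2 (-1.43) lower in High than in Low. Against adult, Il1rn in Low lay 1.57 to 1.68 above the panel median and Il1a 1.25 to 1.28 below it.

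**Figure D4:**
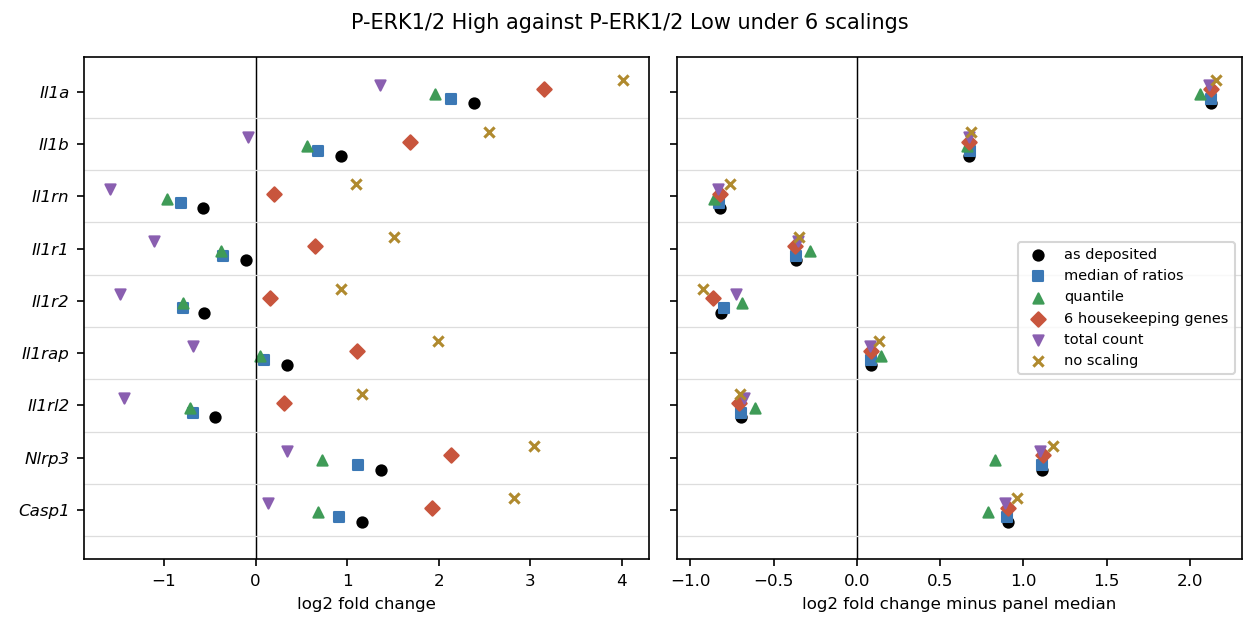
Log2 fold change of each member in High against Low under 6 scalings, as such (left) and after subtraction of the median of all genes under that scaling (right). Il1a runs from 1.36 to 4.02 on the left and from 2.06 to 2.16 on the right, which follows from the construction, since most scalings shift all genes of a sample alike.

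Of 14 genes of IL-1 receptor signaling, 4 were called higher and 1 lower in High against Low, where 28.2% of all genes were called higher and 9.61% lower, with a median log2 fold change of 0.13 beside 0.26 for all genes. These shares are near those of the panel. Irak1, a kinase recruited to the receptor, rose by 1.88, Traf6, the ubiquitin ligase it passes the signal to, by 2.02, the NF-kB subunit Rela by 1.41 and the IKK subunit Chuk by 1.20. Traf6 was above background in none of the Low samples. Ikbkg, the regulatory IKK subunit, fell by 1.11, and the adaptor Myd88 was not called at -0.42. Only Nfkbia, which encodes an NF-kB inhibitor and is itself a target of NF-kB, was called in Low against adult, at 1.24. This is 1 of 14, near the 8.05% of all genes called higher there. At an unadjusted p under 0.05 in limma, 3 of the 14 were higher and 1 was lower. Against adult, 6 rose in High (29.2% of all genes), among them Irak1 by 2.31 and Nfkbia by 2.10, and Irak2 (-1.34) and Ikbkg (-1.25) fell.

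Of 4 partners of the inflammasome, 0 were called higher by limma in the 3 comparisons, and 0 were higher at an unadjusted p under 0.05. Over all genes, 28.2%, 8.05% and 29.2% were called higher and 9.61%, 2.73% and 7.66% lower in High against Low, Low against adult and High against adult, and with 4 genes a count of 0 says little. Casp4, which lies beside Casp1 on chromosome 9 and encodes the caspase of the non-canonical inflammasome, fell by 1.34 (SE 0.37, adjusted p = 0.0097) in High against Low. Casp8 fell by 1.23 in High against Low (SE 0.27, adjusted p = 0.0024) and by 1.02 in High against adult (adjusted p = 0.017). P2rx7, the ATP-gated channel that triggers NLRP3, had log2 fold changes of 0.39, -0.39 and -0.0044 in High against Low, Low against adult and High against adult. Pycard, the adaptor between NLRP3 and caspase-1, was above background in 3 of 4 High and 0 of 4 Low samples, with -0.11, 0.15 and 0.04.

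Of 13 genes that respond to NF-kB, 3 were called higher and 5 lower in High against Low, where 28.2% of all genes were called higher and 9.61% lower (median -0.47, beside 0.26 for all genes). Ptgs2, the inducible cyclooxygenase, rose by 2.10, the apoptosis inhibitor Birc3 by 1.65 and the chemokine Ccl2 by 1.59. Ptx3 (-3.00), the chemokines Ccl7 (-1.84) and Ccl4 (-1.23), the cytokine Tnf (-1.57) and the survival gene Bcl2a1a (-1.26) fell. In Low against adult, where 8.05% of all genes were called higher, 6 of the 13 were, from Ptgs2 at 1.03 to Ptx3 at 2.93 with Tnf at 1.27, and Lcn2 fell by 1.54. In High against adult 4 were called higher (29.2% of all genes), Ccl2 by 3.55, Ptgs2 by 3.13, Birc3 by 1.51 and Ccl3 by 1.15, and Lcn2 fell by 2.39.

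Of 4 immediate early genes, a class that ERK signaling is known to induce, 0 were called higher in High than in Low by limma, and 0 were higher at an unadjusted p under 0.05. With 28.2% of all genes called higher and 9.61% lower, a count of 0 among 4 genes is no result about this class. Fos had a log2 fold change of -0.03, Jun of 0.04 and Egr1 of -0.58, and Atf3 fell by 1.49 (SE 0.29, adjusted p = 0.0012). In Low against adult 2 of the 4 were called higher (8.05% of all genes), and all 4 were higher at an unadjusted p under 0.05 in limma. The values of all 4 did not overlap between Low and adult, against 36.5% of all genes. Against adult, Fos rose by 1.80 in Low and by 1.77 in High. Egr1 rose by 1.09 in Low, and Atf3 fell by 1.11 in High. Of 12 other cytokine receptors, 4 were called higher in High against Low, Il2rg by 2.16, Il21r by 1.70, Il10rb by 1.43 and Tnfrsf1b by 1.07, and none lower. This share is near the 28.2% of all genes called higher. Low against adult had 0 of 12 called by limma (8.05% of all genes were called higher) and, at an unadjusted p under 0.05, 4 higher and 1 lower, and High against adult had 4 called higher, near the 29.2% of all genes, with Il2rg at 2.75.

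Over the 11 samples, Nlrp3 and Casp1 had the most similar profiles among the 4 members with at least 20 counts in each sample (Pearson r = 0.98 on log2 values), and the other pairs had r of 0.54 to 0.72. The genes most like Nlrp3 were Dusp7 (r = 0.99), a phosphatase of ERK, Cd84 and Hat1. Those most like Casp1 were Clec7a (r = 0.99), Mpeg1 and Nlrp3 itself. Il1rn was most like Mcm5 (r = 0.98), Crip1 and Dnmt1, and Il1rap most like Bak1 (r = 0.90), Epsti1 and Ifitm2. These correlations run over samples of 3 groups that differ in depth and are given as a description.

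Markers of some other cell types differed between the groups. The summed value of 6 endothelial markers was 622 to 1257 in High, 207 to 312 in Low and 286 to 413 in adult samples, with 5, 1 and 4 genes above background in any sample and Tie1 in none. For 8 T and NK cell markers it was 274 to 1029, 152 to 199.9 and 119 to 247, and Cd3e alone was 112 to 801 in High and 7.01 to 37.5 in Low, while Cd8a, Klrb1 and Gzma were above background in no kept sample. The 4 astrocyte markers summed to 859 to 1439, 455 to 546 and 314 to 451, mostly through Gja1. Kcnj10 was 113 to 218 in High and 34.8 to 56.1 in Low samples, above background in 4 of 4 and 0 of 4. Aldh1l1 was also above background in 4 of 4 High and 0 of 4 Low samples, with overlapping values. Slc1a3 was above background in 3 of 4 High samples and in no Low or kept adult sample, but its median was lower in High (31.0) than in Low (56.55). Of the neutrophil markers, Trem3 and Ceacam3 were above background in all High samples, Csf3r had a lower median in High (70.7) than in Low (125), and Ly6g and Fpr1 were above background in no kept sample. The sums of B cell, mast cell, oligodendrocyte and neuron markers overlapped between the groups. Those of monocytes and border macrophages were 222 to 268 in High, 177 to 221 in Low and 168 to 256 in adult samples. Among these, Cd163 was 59.5 to 75.5 in High, 24.6 to 37.3 in Low and 19.8 to 40.8 in adult samples. It was above background in the High samples alone, and was called higher in High against Low (1.15) and against adult (1.28). Siglec1 was above background in 4 of 4 High, 1 of 4 Low and 1 of 3 adult samples, and Ccr2 in 3 of 4 High samples alone. Ms4a4a and Cd209e were above background in no kept sample. Sample 7, which had the most Il1a, was the highest of the 11 kept samples for the sums of endothelial (1257), B cell (317), oligodendrocyte (285) and neuron markers (393). It was the lowest of the High samples for the sums of astrocyte markers (859) and of monocyte and border macrophage markers (222). Its T and NK cell sum (696) lay below that of sample 5 (1029), and its microglial sum (3544) was the highest of the High samples. The 8 microglial markers summed to 2851 to 3544 in High, 3371 to 3692 in Low and 3487 to 3801 in adult samples, and Csf1r made up most of the sum in Low (median 2721), with a median of 1590 in High. P2ry12, Tmem119, Sall1 and Gpr34 went the other way, with medians of 147, 275, 301 and 133 in High and 43.9, 73.3, 91.9 and 55.6 in Low and no overlap, although in Low they were above background in 0, 1, 1 and 0 of 4 samples. Cx3cr1, whose promoter drives the reporter of the gate, had medians of 147 in High, 151 in Low and 77.1 in adult samples, and the groups High and Low overlapped. Olfml3 had medians of 168, 219 and 581 and Fcrls of 189, 143 and 601, both with every Low and High sample below every adult sample. The part of other cells in the values of Il1a, Il1b, Nlrp3 and Casp1 was not tested, and in such bulk samples fewer cells of a type and less RNA per cell cannot be told apart.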

How the data were processed

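The NanoString Neuroinflammation panel (757 endogenous and 13 housekeeping genes, 8 negative and 6 positive control probes) was run on RNA of 12 samples of sorted microglia. The deposited values are a normalized signal that the authors made in nSolver (version not given in the sources used). Gene values are whole counts times 1 factor per sample that sets the housekeeping genes to a geometric mean of 173, without background subtraction, and the control probes are unscaled counts. Division by the factor gave whole counts within 0.1 count for 100% of values above 1, and 16 values are listed at 1. All 12 columns were mapped to samples by the accession in the column name, and 0 were left unmapped.

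The 2 groups of a comparison were fitted in R 4.3.3 with limma 3.58.1 on log2(value + 1), with no filter. Thresholds were those of the study (p under 0.01 and a log2 fold change of more than 1), and p-values were adjusted by Benjamini-Hochberg over 770 genes. Ratios within a sample were compared by exact permutation tests in Python 3.11.15 with scipy 1.17.1. The limma step was tested on simulated data. Background was the mean plus 2 SD of the negative controls. Precision is limited by the counts, which cover counting error only. They are given for the Low samples of Il1a, Il1b, Il1r1, Il1r2 and Il1rl2 and for Il1r2 in all groups.

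Named genes are the 9 members, the called genes of 5 lists (all genes for lists of up to 5, otherwise a few uncalled ones named after their values were seen), and for each member with 20 or more counts in the 11 kept samples the 3 genes of highest Pearson correlation. The members and lists were chosen with earlier results of these data known. Alternatives were pseudocounts of 0.1 and 20, 2 filters on low values, 5 other scalings, subtraction of the negative-control mean (added after the data were seen), a spread shared by the groups, unequal variances in a plain test, calls at an adjusted p under 0.05, adult sample 11 added and each sample left out. Promoter windows and gene symbols came from RefSeq tables of GRCm38.p6, in which 763 of 770 symbols were current and 7 were synonyms.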

Additional observations from a re-analysis of the deposited data

Results flagged for a closer look

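Il1rn in the P-ERK1/2 High group was flagged because sample 7, at 82.0, lay far below the other samples of the group (253, 274 and 286). Il1rl2 in the same group was flagged because sample 5, at 42.2, lay above the other samples, which were all between 28.0 and 29.2. Chance flags about 1 in 20 groups, and 18 groups of 4 samples were checked over the 9 genes, 2 of which were flagged.

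Adult sample 11, which its title marks as excluded and which enters no test above, was flagged for 6 genes that were above background there and higher than in every kept adult sample. Nlrp3 was 1018 (highest kept adult sample 237), Casp1 792 (151), Il1a 307 (239.7), Il1rn 292 (93.9), Il1rap 243 (99.8) and Il1b 127 (72.6). Its Nlrp3 value lay within the range of the P-ERK1/2 High samples, and its Casp1 value above it. Sample 11 had 1464449 counts, against 137980 to 326575 in the kept adult samples.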

How the results depend on the processing

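Of 557 alternative values of the members' log2 fold changes, 454 kept their direction and their side of the threshold, 38 lost the call, 31 gained it and 34 changed sign. In High against Low, 291 genes were called, with 235 to 310 when a sample was left out, 596 without scaling and 189 with a plain test of unequal variances. Of the members, 3 were called, 2 to 4 with a sample left out, 5 with the 6 stable housekeeping genes, 7 without scaling, 4 with total count (Il1rn, Il1r1, Il1r2 and Il1rl2, all lower, and none of the 3), and 1 each after quantile normalization and with the plain test. For Low against adult, 83 genes were called, with 75 to 95 when a sample was left out, 240 without scaling, 132 with the negative-control mean subtracted, 54 with the plain test and 34 with adult sample 11 added. Of the members 3 were called, 2 to 3 with a sample left out and 1 with sample 11 added. For High against adult, 284 genes were called, with 225 to 303 when a sample was left out, 173 with the plain test and 49 with sample 11 added. Of the members 3 were called, 2 to 5 with a sample left out, 6 with the 6 stable housekeeping genes, 6 without scaling, 3 with total count (Il1r1 at -1.77, Il1r2 at -2.17 and Il1rl2 at -1.50, all lower, and none of Nlrp3, Casp1 and Il1rap), 5 with a shared spread, 5 with the adjusted p and 0 with sample 11 added, where by limma Nlrp3 alone had an unadjusted p under 0.05, at a log2 fold change of 1.79.

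With sample 11 added, the Low against adult values were -1.37 for Il1a, still called, 1.29 for Il1rn, 0.42 for Nlrp3 and 0.55 for Il1r2, which changed sign. The High against adult values were 1.21 for Casp1 and 0.62 for Il1rap.

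Signs that changed in High against Low were those of Il1rn (0.20), Il1r1 (0.65), Il1r2 (0.16) and Il1rl2 (0.31) with the 6 housekeeping genes, and of Il1rn (1.10), Il1r1 (1.51), Il1r2 (0.93) and Il1rl2 (1.16) without scaling. With total count they were those of Il1b (-0.080) and Il1rap (-0.68), and with the negative-control mean subtracted those of Il1r1 (1.00) and Il1rl2 (0.69). With a sample left out, Il1r1 ran from -0.29 to 0.13. For Low against adult, Il1rap (-0.11), Il1rl2 (-0.50) and Casp1 (-0.11) changed sign without scaling, Il1rl2 with total count (-0.064) and with the mean subtracted (-0.14), Il1r2 with the mean subtracted (0.51), and Il1b ran from -0.39 to 0.15 with a sample left out. For High against adult, Il1a (-0.20), Il1b (-0.54), Il1rn (-0.26) and Il1rap (-0.33) changed sign with total count, Il1r1 (0.31) and Il1rl2 (0.57) with the 6 genes, Il1r1 (0.42) and Il1rl2 (0.66) without scaling and Il1rl2 (0.56) with the mean subtracted. Il1rl2 ran from -0.36 to 0.12 with a sample left out. The cause was not tested.

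Of the ratios, Il1rn over Il1a in Low against adult was 2.54 with a pseudocount of 20. With a sample left out, the ratios in High against adult ran from -0.027 to 0.77 for Il1rn over Il1b, from -0.46 to 0.79 for Il1rn over Il1a and from -0.021 to 0.65 for Il1a over Il1b. The low counts of the Low samples limit what can be said of Il1a, Il1b and the receptor chains there. No paired analysis was possible because the compared groups share no replicate numbers in the labels. Count models were not run on the recovered counts.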
